A study of Homo sapiens with 4 samples.

Results

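Skipped exons that can begin at more than one 3' splice site were compared between MDA-LM2 cells depleted of SNRPB2 and control cells. MDA-LM2 cells were derived from the human breast cancer line MDA-MB-231 by selection for metastasis to the lung. Members were taken by position: a skipped exon belonged to the set when another skipped exon had the same 5' splice site but a 3' splice site 1 to 200 nt away. Each exon needed at least 10 informative reads in each file, that is, reads that fit only the isoform with the exon (inclusion-only) or only the isoform without it (exclusion-only). Of 38121 skipped exons listed in either file, 5283 met the rule on position, and 3117 of the 21474 exons with enough reads were members. They lay at 1450 shared 5' splice sites in 1302 genes.

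The study holds 4 libraries of total RNA, 2 labelled siSNRPB2 and 2 labelled siCtrl, all taken 48 h after lipid transfection. Per the labels, the 2 selected siRNAs against SNRPB2 each lowered their target by more than 95% in quantitative PCR, and the controls received a control siRNA. The labels do not say which siRNA went into which library. The deposited files give 1 inclusion level per event and group (ψ, the share of transcripts with the exon, estimated by the authors with MISO). No difference below therefore has a replicate check, and no p-value between the conditions is given. The depletion itself was not checked in these data, since none of their skipped exons (0) was assigned to SNRPB2.

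The 3' splice site ends an intron, usually in the bases AG, behind a branch point and a tract rich in pyrimidines. U2AF binds the tract and the AG, and the U2 small nuclear ribonucleoprotein, of which the SNRPB2 product U2B'' is a protein, pairs with the branch point. Where 2 such sites lie close together, the spliceosome can join the upstream exon to either, which gives a longer exon from the upstream site and a shorter one from the downstream site. Sites 3 nt apart, known as tandem acceptors or NAGNAG sites, add or remove a single codon when the exon is coding.

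The stretch between the sites shows how the pairs are built. It is exon in the longer variant, and in the shorter variant it is intron that ends in the downstream acceptor. Of 1450 pairs (1 per shared 5' splice site), 1384 had the stretch in an annotated GENCODE transcript of hg38, and 1375 of these stretches (99.3%) ended in AG. Among all overlapping windows of 2 bases in the same stretches, the final ones included, 7.52% read AG. Each stretch ends at the 3' splice site that defines the shorter exon, so an AG there follows largely from that definition. In the 827 stretches of at least 20 nt, the last 20 bases had a median of 65.0% C or T, against 50% in the first 20 bases of the shorter exon. Among pairs 3 nt apart with a sequence, the stretch read CAG in 117 of 181, TAG in 35, AAG in 19 and GAG in 10. The following 4 pairs with sites 3 nt apart are described below. Each line gives the stretch between the sites and then up to 20 bases of the shorter exon, 5' to 3', with the AG of the downstream site in capitals. They are CLK2 at chr1:155268708-155268795 (minus strand), NARS at chr18:57620569-57620651 (minus), STOML1 at chr15:73984659-73984871 (minus) and SENP6 at chr6:75640684-75640704 (plus), all coding in hg38, with the coordinates of the longer exon.
CLK2: cAGcacagcagccggagagccaa
NARS: cAGagctgtacgtctctgaccga
STOML1: cAGacaccgtggagatggtgagt
SENP6: cAGtctggaccgaaaagaaag

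Stretches of other lengths are shown for 5 pairs whose gap in ψ changed between the files, as described below. They are QARS at chr3:49098192-49098258 (minus strand), FOXRED1 at chr11:126274927-126275021 (plus), INO80E at chr16:30001414-30001530 (plus), PAX8 at chr2:113235394-113235582 (minus) and DEPDC5 at chr22:31876087-31876265 (plus). In the last 20 bases of the stretch, 80% were C or T in PAX8, 65.0% in DEPDC5 and 60% in INO80E, while the stretches of QARS and FOXRED1 are only 7 and 4 nt long.
QARS: attccAGcacaagaaccctgaagatcc
FOXRED1: gcAGgagggagccaaagtttctct
INO80E: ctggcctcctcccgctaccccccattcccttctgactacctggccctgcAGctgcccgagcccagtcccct
PAX8: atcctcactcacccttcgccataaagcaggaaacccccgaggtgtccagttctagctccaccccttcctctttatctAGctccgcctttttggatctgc
DEPDC5: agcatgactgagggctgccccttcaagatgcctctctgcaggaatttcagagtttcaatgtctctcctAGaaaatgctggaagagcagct

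The most frequent distance was 3 nt, with 191 of 1450 pairs (13.2%). Distances of 4 nt (78 pairs), 5 nt (54) and 21 nt (35) followed. A distance that is a multiple of 3, which keeps the reading frame of a coding exon, occurred in 620 pairs (42.8%). The exon was coding in 1204 pairs, and in 523 of these the distance was a multiple of 3. For comparison, 814 pairs with a shared 3' splice site and competing 5' splice sites had 9 pairs 3 nt apart and 54 pairs 4 nt apart, with 34.4% multiples of 3.

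**Figure D1:**
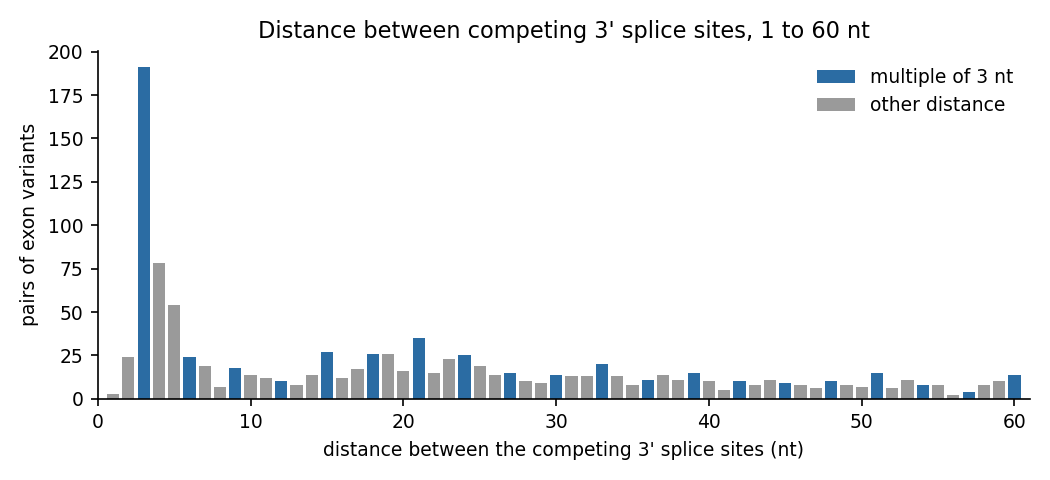
Number of exon pairs (vertical axis) at each distance between the competing 3' splice sites, from 1 to 60 nt (horizontal axis), with multiples of 3 in blue. The bar at 3 nt holds 191 pairs, more than any other distance.

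Member exons were compared with all skipped exons that had enough reads, members included. Their median length was 128 nt, against 120 nt over all 21474 exons, and 69.8% were coding against 75.2%. Their introns were shorter, with a median of 1492 nt against 2191 nt upstream and 1476 nt against 2055 nt downstream. Median ψ in siCtrl was 0.84 in members (quartiles 0.28 and 0.98) and 0.75 over all exons. In both files ψ was at most 0.05 in 10% of members and in 17.3% of all exons. Informative reads per member had a median of 146 in siCtrl and 127 in siSNRPB2, against 124 and 107 over all exons. At 185 of the 5' splice sites 3 or more member exons met, at most 6. The pairs used 2900 of the member exons, and the other 217 were further variants at the same sites. GENCODE held both exons of 1274 pairs.

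How the reads fall to the variants decides what can be compared. In 1425 pairs the events of both variants had the same flanking exons. In all 1425, in each file, both events had the same total, the same exclusion-only reads and the same reads that fit either isoform. Among reads that fit at least 1 isoform, the events differed only in those for inclusion, and the reads that fit neither isoform made up the difference. Reads within the shared body count for both variants. The difference in inclusion-only reads, longer minus shorter, is then the net number of reads that fit one site and not the other. That difference was 0 in both files for 208 pairs (14.6%), where the files do not tell the sites apart. The smaller of the inclusion-only numbers was a median of 83.7% of the larger in siCtrl and 83.3% in siSNRPB2. Each variant was set against skipping alone, so the 2 ψ values of a pair are not shares of one pool. They summed to more than 1 in 976 pairs in siCtrl. A read that lies wholly in the stretch between the sites fits the longer exon whether its RNA was spliced or not, and the files do not separate such reads.

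In siCtrl, ψ of the paired variants was close in most pairs. The values lay within 0.05 of each other in 990 of 1450 pairs (68.3%), and the median gap (longer minus shorter) was 0. The longer variant was higher by at least 0.1 in 172 pairs and the shorter in 183. By inclusion-only reads, the longer variant was ahead in 773 of the 1425 pairs with the same flanks and the shorter in 349. In siSNRPB2 these numbers were 793 and 318, and the median gap was again 0. The shorter variant was ahead in 22.5% of pairs 3 nt apart, 10.4% of pairs 4 to 12 nt apart, 35.1% of pairs 13 to 50 nt apart and 21.1% of pairs 51 to 200 nt apart in siCtrl. A longer stretch can hold more reads of its own, and length and use cannot be told apart here.

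The first comparison asks whether inclusion of the member exons differed after depletion of SNRPB2. An exon was called where the authors' deposited table gave both a ψ difference (siSNRPB2 minus siCtrl) of 0.1 or more in size and a Bayes factor of 10 or more. Of the 3117 members, 269 were called lower (8.63%) and 269 higher (8.63%). Over all 21474 exons, 7.72% were called lower and 7.49% higher, and over the exons that are no members 7.57% and 7.3%. Exons with competing 5' splice sites were called lower in 8.31% and higher in 8.72%. The members' share of calls in either direction, 17.3%, lay near the 15.2% of all exons, the 14.9% of the other exons and the 17% of exons with competing 5' splice sites. Among exons with exclusion-only reads in each file, 11.1% of 942 members were called lower and 8.28% higher, against 8.16% and 7.48% of all 7940 such exons. The median ψ difference was 0 in members and over all exons. Fisher's exact test on inclusion-only and exclusion-only reads, which compares the files and not the conditions, gave the opposite order. It called 9.66% of members (5.1% lower and 4.56% higher) and 10.7% of all exons (5.26% and 5.43%) at an adjusted p under 0.05 (Benjamini-Hochberg over all exons) and a share different by at least 0.1. This test cannot call an exon without exclusion-only reads in either file. Such exons made up 56.2% of members and 50.9% of all exons, so a lower share in members is partly built in. No conclusion is drawn from that order. Of the 538 called members, 46.1% lacked exclusion-only reads in both files, and no skipping was read there.

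Paired variants mostly moved together, as far as shared reads allow them to differ. At least 1 variant was called in 325 of 1450 pairs (22.4%), against 24.3% of the pairs with competing 5' splice sites. Both variants were called lower in 78 pairs and higher in 82, and 1 pair was called in opposite directions. Only 1 variant was called in 164 pairs. In 136 of these the other variant's ψ difference had the same sign, in 13 it was 0 and in 15 it had the opposite sign. The longer variant was called lower in 117 pairs (8.07%) and higher in 128 (8.83%), the shorter variant lower in 120 (8.28%) and higher in 121 (8.34%). Of the 159 pairs called the same way with the same flanks, 32 had equal inclusion-only reads in both files, so that their agreement is built in. In the rest it is partly built in, since the variants share exclusion-only reads and reads of the shared body.

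Among pairs called higher for both variants, with at least 20 informative reads and the same flanks, the 4 ranked first by the smaller of their ψ differences were PRUNE1, IMPDH1, TIMM23B and MAP2. In PRUNE1, a phosphoesterase gene, ψ was 0.93 in siSNRPB2 and 0.26 in siCtrl for the longer variant and 0.91 and 0.24 for the shorter, both called higher. The sites are 90 nt apart, and its exclusion-only reads numbered 48 in siCtrl and 0 in siSNRPB2, a count that allows up to 3. In IMPDH1, an enzyme of guanine nucleotide synthesis, ψ was 0.86 and 0.28 for the longer variant and 0.89 and 0.03 for the shorter, and the 31 exclusion-only reads of siCtrl met 0 in siSNRPB2. Skipping of these exons was thus read in siCtrl and not in siSNRPB2. IMPDH1 was also among the 159 pairs with a changed gap defined below, with 0 inclusion-only reads for the shorter variant in siCtrl, which allows up to 3, and 21 in siSNRPB2. TIMM23B, whose product belongs to a family of mitochondrial import proteins, had 0.95 and 0.36 for the longer variant and 0.97 and 0.4 for the shorter. Its inclusion-only reads were 173 and 172 for the longer and shorter variant in siSNRPB2 and 83 for each in siCtrl. The reads thus hardly tell the TIMM23B sites apart. Its exclusion-only reads numbered 35 in siCtrl and 0 in siSNRPB2, which allows up to 3. MAP2, a microtubule-associated protein gene, had 0.93 and 0.16, and 0.93 and 0.15, with the same inclusion-only reads for both variants (170 in siSNRPB2 and 32 in siCtrl) and no exclusion-only read.

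Among pairs called lower for both variants, NT5C2, which encodes a cytosolic nucleotidase, had ψ of 0.25 in siSNRPB2 and 0.95 in siCtrl for the longer variant and 0.26 and 0.96 for the shorter. Skipping was read 29 times in siSNRPB2 and 0 times in siCtrl. VTI1A, a SNARE of endosome to Golgi transport, had 0.2 and 0.94, and 0.19 and 0.9, with 17 exclusion-only reads against 0. ZNF83 had 0.15 and 0.76, and 0.17 and 0.81, with 15 against 6. ZNF692 had 0.29 and 0.94, and 0.3 and 0.91, and no read that showed skipping. In VTI1A, ZNF83 and ZNF692 the inclusion-only reads of the variants were equal in each file, so which 3' splice site was used is not measured there.

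**Figure D2:**
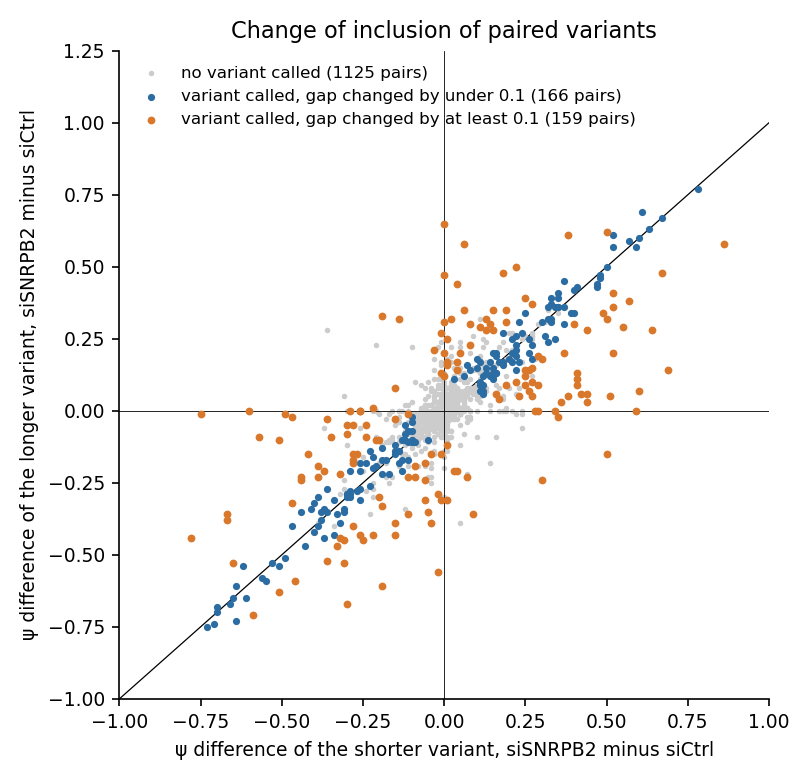
Difference in ψ between siSNRPB2 and siCtrl for the longer variant (vertical axis) against the shorter variant (horizontal axis) of 1450 pairs, 1 point per pair, with the diagonal drawn. Grey points are 1125 pairs with no variant called, blue points are called pairs whose gap changed by under 0.1, and the 159 in orange, off the diagonal, changed it by at least 0.1.

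The second comparison asks whether the balance between the sites differed. A pair had a changed gap when at least 1 variant was called and the gap in ψ, longer minus shorter, differed by at least 0.1 between the files. This held for 159 of 1450 pairs (11%), 74 of them towards the longer variant (5.1%) and 85 towards the shorter (5.86%). Of pairs with competing 5' splice sites, 13.8% had a changed gap, 6.39% towards the longer variant and 7.37% towards the shorter. The shares by distance were 7.33% at 3 nt (4 towards the longer variant and 10 towards the shorter), 11% at 4 to 12 nt (9 and 17), 9.16% at 13 to 50 nt (27 and 22) and 14.8% at 51 to 200 nt (32 and 36). Among coding pairs the share was 9.94% where the distance was a multiple of 3 and 13.8% where it was not. In 156 changed pairs with the same flanks, the net reads were taken as a share of the larger inclusion-only number. This share moved the same way as the gap in 139 and the opposite way in 13. Both gap and share come from the same inclusion-only reads, so their agreement is largely built in and is no separate support. Exclusion-only reads were missing from both files in 95 of the 156. Among the changed pairs described below, this held for TAF1A, CDK5RAP2, SUGP1, FAM156A, RFC2, TMEM185A and CIRBP. It also held for QARS, FOXRED1, DCAF11, PAX8, KLC4, NARS, TACC1 and ALAD. No skipping was read in these pairs, so their ψ differences do not rest on observed skipping. The last 20 bases before the downstream site had a median of 62.5% C or T in pairs whose gap moved to the longer variant (46 pairs with a sequence), 65.0% in those that moved to the shorter (47) and 65.0% in the rest (734).

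Among pairs with at least 20 informative reads and the same flanks, the largest move towards the longer variant was in TAF1A, a subunit of the RNA polymerase I initiation factor SL1, with sites 18 nt apart on chromosome 1. Its longer variant had ψ of 0.9 in siSNRPB2 (authors' interval 0.79 to 0.99) and 0.25 in siCtrl (0.18 to 0.33), on 163 and 43 inclusion-only reads. The shorter variant had 0.99 in both files, on 273 and 314 reads. Reads that fit the longer variant, those of the shared body among them, were thus more in siSNRPB2, while the shorter variant was ahead in both files. How many of them came from the upstream site alone is not given. CDK5RAP2, a centrosomal protein, showed the same arrangement with sites 80 nt apart: 0.79 and 0.48 for the longer variant, and 0.99 in both files for the shorter. In the authors' deposited table its longer variant has a Bayes factor of 11.4, just over the threshold of 10.

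SUGP1, a partner of SF3B1 in branch point recognition, had 3 pairs, and its longer variants behaved likewise in 2 of them. With sites 55 nt apart, ψ of the longer variant was 0.48 in siSNRPB2 (0.38 to 0.59) and 0.16 in siCtrl (0.11 to 0.21), on 114 and 39 reads, while the shorter had 0.99 and 0.97. At a second exon with sites 196 nt apart, the longer variant had 0.64 and 0.34 and the shorter 0.98 and 0.9. A further variant of intermediate length at that 5' splice site had 0.93 and 0.51 and was called higher as well. The pair 71 nt apart had no variant called (0.68 and 0.88 for the longer, and 0.44 in both files for the shorter).

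In other pairs the gap moved to the longer variant and the shorter fell. In FAM156A, with sites 3 nt apart in the 5' untranslated region, the longer variant had 0.95 in siSNRPB2 and 0.96 in siCtrl and the shorter 0.31 and 0.8, on 25 and 78 reads. RFC2, a subunit of the clamp loader of DNA replication, had 0.17 and 0.68 for the shorter variant, on 35 and 195 reads, and 0.14 and 0.24 for the longer. Its inclusion-only reads favoured the shorter variant in siCtrl (195 against 134) and the longer in siSNRPB2 (58 against 35). In DEPDC5, a subunit of the GATOR1 complex that restrains mTORC1, both variants were called lower, the shorter from 0.92 to 0.14 and the longer from 0.56 to 0.12. DEPDC5 had 0 exclusion-only reads in siCtrl and 16 in siSNRPB2, and inclusion-only reads were few in siSNRPB2 (5 for each variant). With equal reads, which 3' splice site of DEPDC5 was used is not measured in siSNRPB2. TMEM185A, with sites 5 nt apart, went from 0.96 to 0.29 for the shorter variant and from 0.96 to 0.6 for the longer.

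CIRBP, a cold-inducible RNA-binding protein, was the only pair called in opposite directions. Its sites are 189 nt apart on chromosome 19, and the longer exon spans 1271140 to 1271467. The longer variant had ψ of 0.91 in siSNRPB2 (0.8 to 1) and 0.59 in siCtrl (0.52 to 0.67), and the shorter 0.12 (0.08 to 0.17) and 0.26 (0.2 to 0.32). The shorter variant had 28 inclusion-only reads in siSNRPB2 and 106 in siCtrl, the longer 538 and 590. For the shorter variant the authors' deposited table gives a Bayes factor of 65.7, so this pair was no longer called in opposite directions with a minimum of 100. By GENCODE the longer exon is non-coding and the shorter one coding.

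Under the same minimum of reads, the largest move towards the shorter variant was in QARS, the glutaminyl-tRNA synthetase, whose sites are 7 nt apart (sequence above). The shorter variant had ψ of 0.85 in siSNRPB2 (0.7 to 0.99) and 0.26 in siCtrl (0.19 to 0.33), on 136 and 51 inclusion-only reads. The longer variant had 0.99 in both files, on 428 and 378 reads. The longer variant thus had more reads in both files, and its lead over the shorter, as a share of its reads, was 68.2% in siSNRPB2 and 86.5% in siCtrl. The same form, a longer variant at 0.88 or above in each file and a shorter one called higher, was found in INO80E, FOXRED1 and NARS. By GENCODE the shorter exons of QARS and FOXRED1 are non-coding and the longer ones coding.

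In INO80E, a subunit of the INO80 chromatin remodelling complex, the shorter variant had 0.83 in siSNRPB2 and 0.23 in siCtrl, on 81 and 31 reads, and the longer 0.97 and 0.9. FOXRED1, an assembly factor of respiratory complex I, had 0.84 and 0.33 for the shorter variant and 0.93 and 0.88 for the longer, with sites 4 nt apart. In INO80E and FOXRED1 the authors' intervals of the shorter variant did not overlap between the files. DCAF11, a substrate receptor of cullin ubiquitin ligases, had 0.64 (0.52 to 0.77) and 0.2 (0.14 to 0.26) for the shorter variant and 0.73 and 0.67 for the longer. ATP5F1B, the beta subunit of ATP synthase, had a shorter variant of only 12 nt, with 0.9 and 0.21 on 112 and 37 reads. Its longer variant of 159 nt had 0.82 and 0.68 on 1263 and 1424 reads and was also called higher.

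In PAX8 and KLC4 the longer variant fell. PAX8, a paired-box transcription factor, had ψ of 0.34 in siSNRPB2 (0.24 to 0.47) and 0.9 in siCtrl (0.76 to 0.99) for the longer variant, on 48 and 151 reads. Its shorter variant had 0.56 and 0.58, on 47 and 51 reads. The lead of the longer variant was 100 reads in siCtrl and 1 in siSNRPB2. KLC4, a kinesin light chain, had 0.32 and 0.99 for the longer variant and 0.69 and 0.99 for the shorter, both called lower, without exclusion-only reads. The shorter variant of KLC4 had more inclusion-only reads in both files, 95 against 48 in siSNRPB2 and 242 against 201 in siCtrl.

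**Figure D3:**
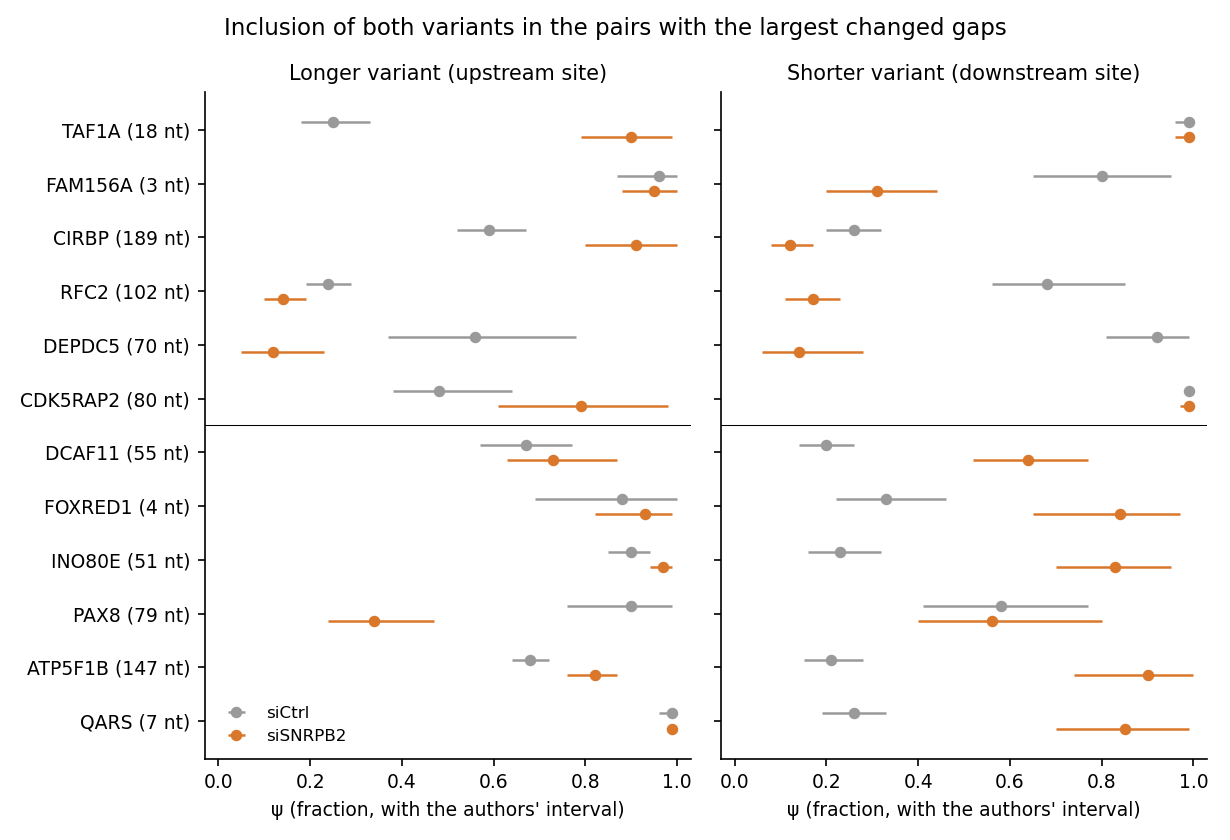
ψ of the longer (left) and shorter (right) variant in siCtrl (grey) and siSNRPB2 (orange), with the authors' intervals as bars and the distance between the sites in brackets. Shown are the 6 largest changed gaps in each direction among pairs with at least 20 informative reads and the same flanks, 1 per gene. Above the line the gap moved to the longer variant, as in TAF1A (0.25 to 0.9 on the left), and below it to the shorter, as in QARS (0.26 to 0.85 on the right).

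Pairs 3 nt apart, which differ by 1 codon where coding, moved in both directions. CLK2, a kinase of SR proteins, had ψ of 0.38 in siSNRPB2 and 0.61 in siCtrl for the longer variant, which was called lower, and 0.27 and 0.2 for the shorter, which was not called. Its inclusion-only reads were 75 and 170 for the longer variant and 49 and 47 for the shorter. SENP6, a SUMO protease, had 0 inclusion-only reads for the longer variant in siSNRPB2, which allows up to 3, against 37 in siCtrl, while the shorter had 17 and 25. Reads for the SENP6 longer exon were thus ahead in siCtrl and behind in siSNRPB2. NARS, the asparaginyl-tRNA synthetase, had 0.94 and 0.65 for the shorter variant, which was called higher, and 0.99 in both files for the longer. STOML1, a stomatin-like protein, had 0.83 and 0.42 for the shorter variant, also called higher, and 0.84 and 0.71 for the longer. In TACC1, a centrosome and microtubule protein, the gap moved to the longer variant, though ψ of both variants fell. The shorter had 0.34 and 0.76 and was called lower, and the longer had 0.65 and 0.8 and was not called.

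Net reads compare the paired variants without ψ, but they do not measure the choice between sites alone. Reads wholly in the stretch fit the longer variant whether their RNA was spliced or not. A longer stretch can also hold more of them. The net read share, the difference in inclusion-only reads as a percent of the larger number, was compared in 1176 pairs with the same flanks and at least 20 reads for the larger number in each file. It is above 0 where the longer variant has more reads. Its median was 5.01% in siCtrl and 6.70% in siSNRPB2, and the median change within pairs was 0. It lay within 10 percentage points between the files in 702 pairs (59.7%), was higher in siSNRPB2 by more in 254 and lower by more in 220. Of the 474 that moved by more than 10 points, 310 had no variant called, and in 73 all 4 ψ values were at least 0.95. In those 73 the exon was nearly always kept, so a different balance of its sites could show in the reads and not in ψ. No error was set on these moves, and near the minimum of 20 reads a few reads make 10 points. Whether they exceed sampling was not tested. Event reads that fit neither isoform were also more frequent in siSNRPB2 (a median of 53.8% per member exon, against 50.9% in siCtrl), and their part in these shares was not tested.

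With at least 10 net reads in each file, 510 pairs had more reads for the longer variant in both files, 197 had more for the shorter in both, and 16 changed sides. Of these 16, 12 went from the shorter in siCtrl to the longer in siSNRPB2 and 4 the other way. The genes below were picked from the 16 after their values were seen. In ALAD, an enzyme of haem synthesis with sites 166 nt apart, the longer variant had 59 inclusion-only reads in siSNRPB2 and 19 in siCtrl, the shorter 17 and 48. In MTMR2, a phosphoinositide phosphatase, in the 5' untranslated region, the longer had 84 and 17 and the shorter 30 and 35. LETMD1 had 120 and 59 for the longer and 94 and 167 for the shorter, and ZNF346 207 and 174 against 163 and 350. In LETMD1 and ZNF346 every ψ was at least 0.91 and no variant was called, although the variant with more reads differed between the files. PIKFYVE, a phosphoinositide kinase with sites 3 nt apart, went the other way on few reads: 1 in siSNRPB2 and 12 in siCtrl for the longer variant, and 15 and 0 for the shorter.

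**Figure D4:**
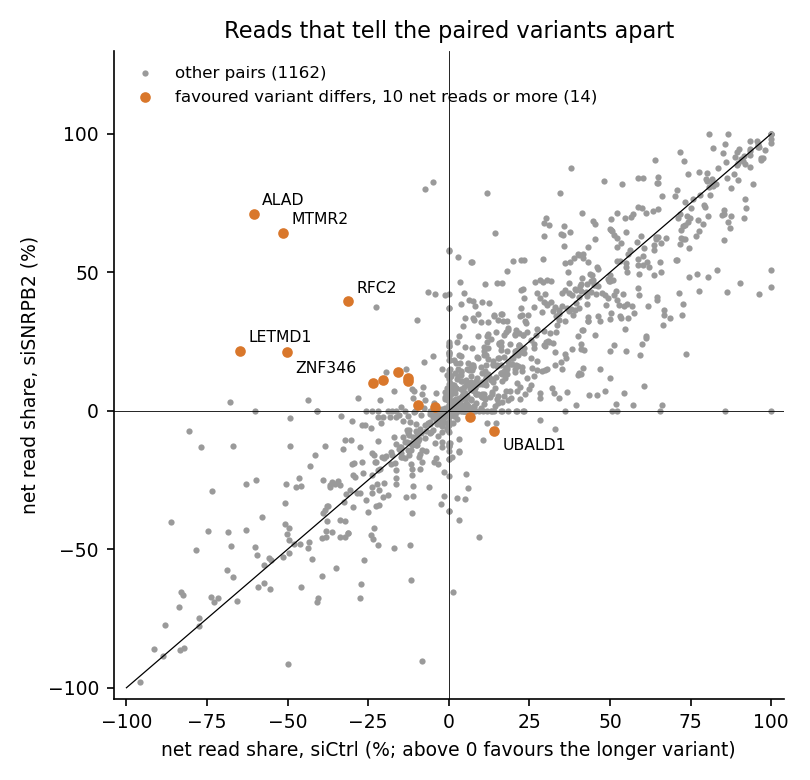
Net read share of the paired variants in siSNRPB2 (vertical axis, percent) against siCtrl (horizontal axis, percent), 1 point per pair, for 1176 pairs with the same flanks and at least 20 reads. The 14 orange pairs have at least 10 net reads in each file and favour different variants. Most of them favour the shorter in siCtrl and the longer in siSNRPB2, as in ALAD and RFC2. The minimum of 20 reads left out PIKFYVE and SENP6, which went the other way.

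Genes that act at the 3' splice site were themselves among the members. Of 43 genes known for recognising or choosing 3' splice sites, 25 had tested exons, and 9 of their 94 exons were called lower and 7 higher (7.72% and 7.49% over all exons). The median ψ difference was 0, as over all exons. They held 20 member exons, of which 4 were called, 3 in SUGP1 and 1 in PTBP1. PTBP1, the polypyrimidine tract binding protein, competes with U2AF at such tracts, and skipping of the exon measured here is known to make a weaker repressor. Its variants, at chr19:805492-805569 on the plus strand with sites 21 nt apart, are both coding. The shorter had ψ of 0.23 in siSNRPB2 (0.2 to 0.26) and 0.34 in siCtrl (0.31 to 0.38) and was called lower, and the longer had 0.29 (0.26 to 0.32) and 0.36 (0.33 to 0.39), under the minimum difference. The longer variant led in both files, with 432 against 250 inclusion-only reads in siSNRPB2 and 754 against 529 in siCtrl. The stretch between the PTBP1 sites is shown since it separates the exons of 78 and 57 nt.
PTBP1: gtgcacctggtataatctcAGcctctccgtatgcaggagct

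The other members of this list had no variant called. HNRNPC, which binds uridine tracts, and SF3B2, a subunit of SF3b in the U2 particle, have sites 3 nt apart in coding exons with every ψ at least 0.99. HNRNPC had 8427 inclusion-only reads for the longer variant and 6597 for the shorter in siSNRPB2, and 10366 and 8247 in siCtrl. The net read share of HNRNPC was 21.7% and 20.4%, so the reads of its variants kept nearly the same balance. SF3B2 had 1332 and 674 in siSNRPB2 and 1541 and 632 in siCtrl, a net share of 49.4% and 59.0%. PUF60, which binds the tract beside U2AF, had 0.94 and 0.99 for the longer variant and 0.95 and 0.99 for the shorter. RBM39, a U2AF-like factor, had 0.08 in both files for the longer variant and 0.14 in both for the shorter, with a net read share of -21.5% in siSNRPB2 and -21.9% in siCtrl, the downstream site ahead in both. U2AF1L4, a paralogue of the small U2AF subunit, had 0.52 and 0.42 for its exon, which was not called.

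The limits of the rule held few members. Of all pairs 191 to 200 nt apart, 19 in number, 6 had a changed gap, and of the 7 pairs 201 to 210 nt apart, left out, 2 had. Of 60 members with 10 or 11 informative reads in the shallower file, 7 were called, and of 83 exons with 8 or 9 reads, left out, 19 were.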

How the data were processed

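Per the submitters' processing notes, the aligner was STAR 2.7 and the genome build hg38. The authors deposited, per the file headers, MISO summaries with ψ as a fraction between 0 and 1, its interval, and how many reads fit either, both or neither isoform. Whether libraries were merged, which events were annotated and which MISO version was run is not given in the sources used here. From the authors' deposited comparison came the Bayes factor, a ratio of at most 1e+12, and the ψ difference, a signed score.

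The siCtrl file lists 42159 events with 100579230 event reads and the siSNRPB2 file 42670 with 93580246. For each exon the event with the most informative reads was used. For each shared 5' splice site 1 pair was kept, with the same flanking exons first and then the largest minimum of informative reads. Genes, positions and exon sequences came from GENCODE 29. Intervals cover what the authors' model covers, not differences between replicates. Named pairs had at least 20 informative reads and the same flanks, 1 per gene except in the list of 3' splice site genes (3 pairs of SUGP1): the 8 largest gap changes per direction, pairs called in opposite directions, the 4 largest per direction called alike, the 6 largest 3 nt apart, and members of the 3' splice site list. A result for 1 named pair is not reported here. Members and lists were chosen with earlier results of these data known. Net read shares were added after the data were seen. The rule and read test were tested on simulated data. Versions were matplotlib 3.10.9, scipy 1.17.1, pandas 2.3.3, numpy 2.4.6 and Python 3.11.15.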

Additional observations from a re-analysis of the deposited data

Results flagged for a closer look

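The comparisons did not use reads fitting neither of an event's isoforms. Over the events of the member exons they made up 43.9% of reads in siSNRPB2 and 42.5% in siCtrl, above the level in the control file. The share was higher in siSNRPB2 in 1904 member exons and lower in 1213. Over all 21474 exons the median share per exon was 55.7% in siSNRPB2 and 52.9% in siCtrl.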

How the results depend on the processing

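No paired analysis was possible because the files hold 1 value per event and group and none per replicate, and for the same reason no replicate could be left out. Of 37 recomputed counts and medians, 24 stayed within 1.5 times the count or 0.01 of the median, among them all 6 with a minimum of 20 informative reads. With sites at most 50 nt apart, 168 members were called higher (269 in the main setting), 94 pairs had a changed gap (159) and 0 were called in opposite directions (1). With a ψ difference of at least 0.2, 83 pairs had a changed gap and 0 were called in opposite directions, and with a Bayes factor of at least 100 also 0. With exclusion-only reads in each file, 105 members were called lower and 78 higher, 40 pairs had a changed gap and 0 were called in opposite directions. These settings admit fewer exons or fewer calls by construction. By Fisher's exact test on reads, 159 members were called lower and 142 higher. With the share of inclusion-only reads in place of ψ, 41 pairs had a changed gap, and 5 of the 23 named pairs with a changed gap kept it. That share is 1 in any event without exclusion-only reads, so it cannot differ between variants there. DEPDC5 and STOML1 had exclusion-only reads in 1 file and still lost the changed gap (changes of 0 and -0.03). The 5 that kept it were ATP5F1B, CLK2, IMPDH1, INO80E and SENP6, and all moved towards the shorter variant. No named pair that moved towards the longer variant kept its changed gap. With the deepest event of each exon, whatever its flanks, all 23 kept it. Depth limits the choice between sites, since only reads at the upstream junction or in the stretch between the sites tell the variants apart.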
